A study of Mus musculus with 24 samples.

Results

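The microRNA (miRNA) levels of PYS, a mouse teratocarcinoma cell line, were compared with those of CT-BM, mouse bone marrow cells. The comparison took 6 of the 12 replicates of the series, 3 of PYS and 3 of CT-BM, and covered all 584 miRNA assays of the cards. PYS is described in the labels as adherent, epithelial-like cells that grow as monolayers, and the line was harvested at passage 3. CT-BM is labelled as primary cells of bone marrow, which the design text says were flushed from femur and tibia. The growth protocol given for CT-BM describes a suspension culture and the series title speaks of stem cells, so which state of the marrow was measured is not known. The labels give no strain, genotype, age or treatment for either group, and they do not say that replicates were separate cultures or animals. Each SE and adjusted p-value rests on the spread within groups, pooled over the 12 replicates and 4 groups of the series. That spread may be technical. PYS is a single line and stands here for no other tumour.

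A miRNA is a short RNA of about the length of the sequences printed here that guides a silencing complex to messenger RNAs. Most of its target choice lies in the seed, bases 2 to 8 from its 5′ end, so miRNAs with one seed can bind overlapping sets of targets. Each hairpin precursor gives a pair of strands, of which the minor one carries a star in the older names used on the cards (or the names end in 5p and 3p), and neighbouring hairpins are often cut from one transcript. In the mouse, the miR-290 cluster (up to miR-295) and the cluster of miR-302 and miR-367 are known from embryonic stem cells, where they favour rapid cell division, while let-7 accumulates as cells differentiate. In marrow, miR-223 is known from granulocytes and monocytes, miR-142 from all blood lineages, miR-150 from mature lymphocytes and miR-451 from red cell precursors.

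The mature sequences of the stem cell miRNAs are shown first, since 5 assays from both clusters share the seed AAGUGCU and all were higher in PYS. They are given 5′ to 3′ with the seed in capitals, from RefSeq on assembly GRCm38.p6, in which 227 of the tested mouse-named assays had an entry and 110 had none. The positions are those of the mature strand.
miR-295, chr7:3220815-3220837, plus strand: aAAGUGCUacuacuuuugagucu
miR-291a-3p, chr7:3218968-3218989, plus strand: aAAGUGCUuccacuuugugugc
miR-294, chr7:3220691-3220712, plus strand: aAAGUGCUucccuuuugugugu
miR-302b, chr3:127545275-127545297, plus strand: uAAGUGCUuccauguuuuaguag
miR-302d, chr3:127545665-127545687, plus strand: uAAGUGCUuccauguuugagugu

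The miR-17 group carries nearly the same letters moved by 1 base, so that its seed reads AAAGUGC. It is shown because its members were abundant in both groups and differed far less.
miR-20a, chr14:115044183-115044205, plus strand: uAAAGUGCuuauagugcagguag
miR-17, chr14:115043684-115043706, plus strand: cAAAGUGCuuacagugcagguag
miR-106a, chrX:52742541-52742563, minus strand: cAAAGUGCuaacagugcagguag

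The seed AUUGCAC joins miR-367 of the stem cell cluster to miR-92a of the miR-17-92 cluster, and the let-7 seed GAGGUAG belongs to a family that was lower in PYS. The members of let-7 shown here differ only outside the seed. RefSeq has 2 genes each for miR-92a and let-7c, so the position shown is 1 of 2 and their levels cannot be assigned to 1 gene.
miR-367, chr3:127545779-127545800, plus strand: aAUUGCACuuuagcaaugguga
miR-92a, chr14:115044476-115044496, plus strand: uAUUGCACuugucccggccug
let-7g, chr9:106178846-106178867, plus strand: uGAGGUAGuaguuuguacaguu
let-7i, chr10:122985698-122985719, minus strand: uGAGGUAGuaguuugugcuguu
let-7c, chr15:85706616-85706637, plus strand: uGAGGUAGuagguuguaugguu

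Among the miRNAs that were lower in PYS, miR-223 and the pair miR-222 and miR-221 lie on the X chromosome, and the pair shares the seed GCUACAU. The immune miRNAs miR-146a and miR-155 have other seeds, and that of miR-146a is shared with miR-146b.
miR-223, chrX:96242884-96242905, plus strand: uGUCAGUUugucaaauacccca
miR-222, chrX:19146901-19146923, minus strand: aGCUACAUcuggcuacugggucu
miR-221, chrX:19146307-19146329, minus strand: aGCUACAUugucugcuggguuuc
miR-146a, chr11:43374435-43374456, minus strand: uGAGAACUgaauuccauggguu
miR-155, chr16:84714143-84714165, plus strand: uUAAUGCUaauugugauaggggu

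Levels came from quantitative PCR after reverse transcription, on TaqMan cards A and B of each replicate, as the threshold cycle (Ct), the cycle at which a well's signal passes a threshold. A Ct over 35 or an undetermined well was counted as not detected and set to 35. A level here is the negative delta Ct, the mean Ct of 3 controls (MammU6, snoRNA135 and snoRNA202) from the card that held the assay minus the Ct of the assay, on a log2 scale. A level of 0 equals the mean of the controls, and lower levels are negative. The table held 2244 wells for PYS and 2241 for CT-BM, between 370 and 380 wells per card, and 45.7% of all these wells were undetermined. The median SD of a level between replicates was 0.264 in PYS and 0.24 in CT-BM. Read depth does not apply to PCR, and the Ct limit sets the lowest level that counted.

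PYS detected 53.8% ± 0.44 of its assays and CT-BM 51.7% ± 0.852 (SD, n = 3 each), and the difference of 2.10 percentage points had an exact two-sided permutation p of 0.1, the smallest that 3 against 3 can give. In every replicate of both groups 251 assays were detected, 59 were detected throughout PYS and in no CT-BM replicate, and 47 the other way round. An assay was tested where every replicate of PYS or every replicate of CT-BM was detected, which left 242 assays on card A and 120 on card B, and most of the others were detected in neither group.

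The miRNA profiles of PYS and CT-BM differed in most tested assays. Of these, 39.8% were called higher and 140 (38.7%) lower in PYS by limma at a Benjamini-Hochberg adjusted p under 0.05 and at least a 2-fold change. Together 284 (78.5%) were called, and the groups did not overlap for 324 (89.5%), so a single call says little and the size of a change is what sets assays apart. Among the 251 assays measured in both groups, 84 were higher, 91 lower and 76 not called. Changes of at least 100-fold were found for 6 of these that were higher and 14 that were lower. A further 106 calls, 59 higher and 47 lower, stood against a group with no detected replicate, so their folds are lower bounds, written as "at least". For such an assay the spread of the undetected group is that of the controls alone. The filter also largely set its direction, so bounds add little support to the counts by list given below.

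**Figure D1:**
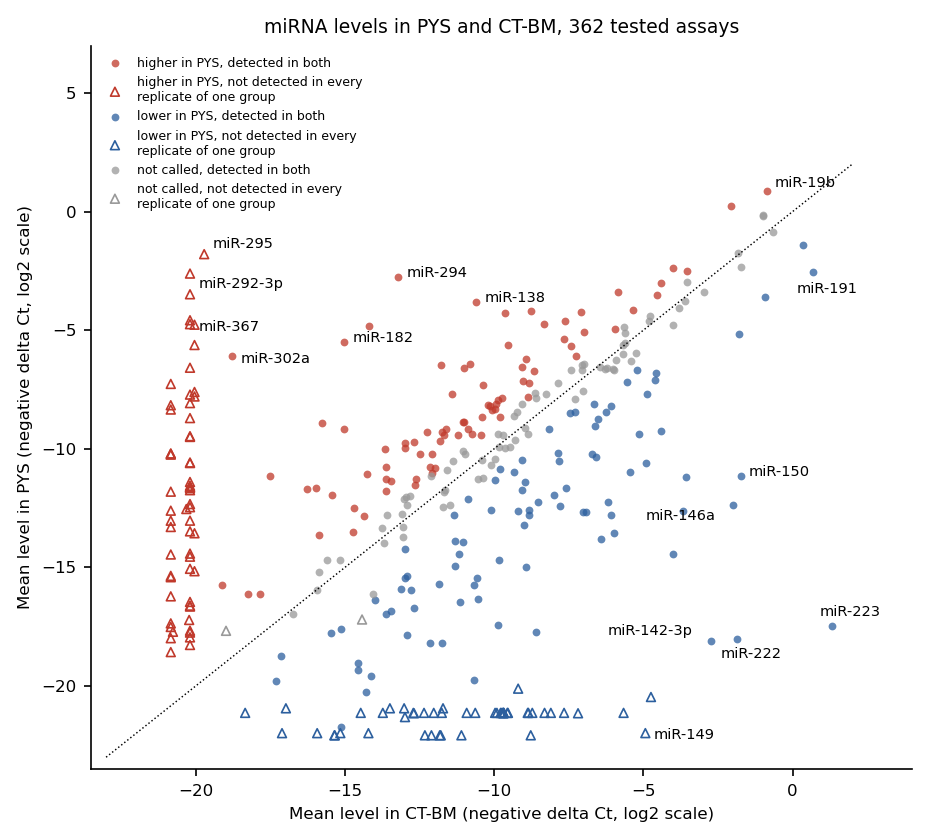
Mean level of each tested assay in PYS (vertical axis) against CT-BM (horizontal axis), both as negative delta Ct on a log2 scale, with the dotted line at equal levels. Filled circles were detected in every replicate of both groups, triangles were not, and the triangles line up at the level of the Ct limit on each card. Points spread far from the line on both sides, miR-223 at the right and the miR-290 and miR-302 assays at the left.

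The controls moved between the groups, which bears on every count of directions. MammU6 came up 0.567 cycles later in PYS on card A and 0.78 later on card B, whereas the Ct of snoRNA135 differed by -1.86 and -2.42 cycles and that of snoRNA202 by -1.53 and -2.09, PYS minus CT-BM. Of the calls, 50.7% were higher in PYS. Scaled by MammU6 alone, 309 assays were called, 66.3% of them higher, and the median log2 change over all assays was 1.84 in place of 0.08. Scaled by snoRNA135 alone, 104 were higher and 171 lower (37.8% higher, median -0.84), and by snoRNA202 alone 121 and 161 (median -0.51). Scaling by common assays (the mean level of those detected throughout all 12 replicates) gave 165 and 129 (median 0.68), and quantiles gave 149 higher of 282 (median 0.45). Under all 5 of these scalings 102 assays were again called higher and 103 lower, and 0 were called the other way under any. Changes smaller than about these shifts depend on the scaling, and the largest ones described next are far beyond them. Whether a lower level means fewer cells that make a miRNA or less of it per cell cannot be told apart in such bulk RNA.

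**Figure D2:**
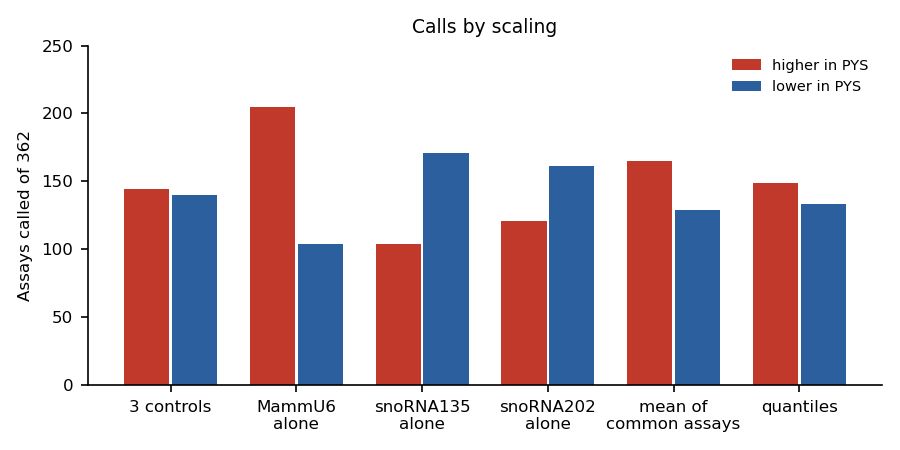
Number of tested assays called higher (left bar) and lower (right bar) in PYS under the 3 controls and under each of 5 other scalings. The share of higher calls runs from 66.3% with MammU6 alone down to 37.8% with snoRNA135 alone.

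The embryonic stem cell clusters stood out as the highest changes in PYS. All 11 tested assays of the miR-290 cluster, of 13 on the cards, were higher, with a median log2 change of 12.67 beside 0.08 over all assays, although 9 of these values are bounds and with quantile scaling 10 were called. The 7 hairpins behind them lie within chr7:3218626-3220841. The level of miR-295, which had the largest value of all, was -2.01, -1.91 and -1.47 in PYS. In CT-BM it was at the Ct limit in 2 replicates and at -18.52 in replicate 2. The log2 change was 17.92 ± 0.65 (SE; limma adjusted p = 6.28e-11), and 18.52 without CT-BM replicate 2. The PYS replicates lay close together and far above every CT-BM replicate.

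For miR-292-3p the PYS levels were -2.88, -2.46 and -2.50, and no CT-BM replicate was detected. It was at least 195270-fold higher in PYS, a log2 change of at least 17.57 ± 0.40. For miR-291a-3p the levels in PYS were -3.82, -3.48 and -3.16, again with no CT-BM replicate detected, and the log2 change was at least 16.70 ± 0.27. The same held for miR-293, with -5.06, -4.41 and -4.77 in PYS and a log2 change of at least 15.44 ± 0.29. Other assays of the cluster had lower levels in PYS, with means of -7.27 for miR-290-5p, -10.25 for miR-292-5p and -11.61 for miR-291b-5p.

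miR-294 was the one member detected in every replicate of both groups. Its levels were -2.88, -3.06 and -2.30 in PYS, against -13.04, -13.54 and -13.09 in CT-BM. The log2 change was 10.47 ± 0.30, a 1419-fold difference (adjusted p = 1.46e-12). CT-BM thus gave a signal for miR-294 at a mean Ct of 28.0, well within the limit, while its other strand, miR-294*, was not detected there and was at least 12.67 log2 units higher in PYS. Both strands of the miR-290 hairpin were higher, miR-290-5p by at least 13.57 and miR-290-3p by at least 11.48. The smallest member was miR-291b-3p, at least 2.26 higher, with PYS levels of -19.18, -18.19 and -18.33 just above the limit.

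All 8 assays of the cluster of miR-302 and miR-367 were higher too, under each of the 6 scalings, with a median of 11.65, beside 39.8% higher over all assays. However, 7 of the 8 values are bounds whose direction the filter largely set, so the agreement of the scalings adds little. The median moved with the Ct limit, to 9.12 at a limit of 32 and 15.11 at 40. The 5 hairpins lie within chr3:127545228-127545807. miR-367 had levels of -4.67, -4.47 and -4.60 in PYS and none in CT-BM, and was at least 15.61 ± 0.38 log2 units higher. miR-302b was at -5.10, -4.49 and -4.73 in PYS and undetected in the 2 CT-BM replicates that hold it, at least 15.27 ± 0.57 higher. miR-302d, at -6.70, -6.49 and -6.56 in PYS, was at least 13.61 ± 0.27 higher.

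The only assay of the cluster with a CT-BM reading was miR-302a. Its levels were -6.34, -5.96 and -6.02 in PYS, against -19.25 and -18.30 in the 2 CT-BM replicates that hold it, a log2 change of 12.67 ± 0.60. The mean Ct in CT-BM was 33.7, close to the limit, so this value lies near a bound. miR-302c was lower than its neighbours in PYS, at -10.80, -10.21 and -10.79, and at least 9.59 higher than in CT-BM. The starred strand miR-302a* was at least 10.63 higher. The groups overlapped for none of the assays of the cluster, but they did not overlap for 89.5% of all tested assays either. For the 7 bounds the Ct limit largely set this.

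Read by seed, the 5 assays with AAGUGCU had a median log2 change of 15.27, with 5 of 5 higher. The 6 assays with AAAGUGC had a median of 0.83, with 2 higher and 4 not called. The AUUGCAC seed held both kinds. In that seed miR-367 was at least 15.61 higher, miR-92a was 1.61 ± 0.24 higher and miR-32, whose gene lies apart on chromosome 4, was 1.85 ± 0.21 higher. miR-25, also of that seed, had a log2 change of 0.39 ± 0.29 and was not called. A shared seed is a property of the sequences, and the assays read each miRNA by itself, although assays for near-identical sequences may read each other in part.

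Most blood-lineage miRNAs went the opposite way. Of the 9 tested assays of the blood-lineage list, 7 were lower, 1 was higher and 1 was not called, with a median log2 change of -9.41 (with MammU6 alone 2 were higher, and with snoRNA135 alone 8 were lower). Detection alone did not set the groups apart on this list, since 8 of the 9 assays were detected in every PYS replicate and 8 in every CT-BM replicate, and the levels did. The largest decrease of all assays was that of miR-223. Its levels were -17.91, -17.52 and -17.00 in PYS, against 1.43, 1.24 and 1.32 in CT-BM, where it was the miRNA with the highest level. The log2 change was -18.81 ± 0.28 (adjusted p = 2.44e-14), a 458620-fold difference beside which the spread within each group was small.

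miR-142-3p was at -19.05, -18.16 and -17.15 in PYS, against -2.80, -2.66 and -2.71 in CT-BM. It fell by 15.39 ± 0.54 on the log2 scale. Its other strand, miR-142-5p, was not detected in PYS and was at least 12.82 log2 units lower there (CT-BM levels -8.45, -8.03 and -8.45). Both strands of this blood hairpin therefore moved one way.

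miR-146a, which damps signalling from innate immune receptors, was at -12.68, -12.49 and -11.99 in PYS, against -1.94, -1.96 and -2.10 in CT-BM, a log2 change of -10.39 ± 0.27. Its paralog miR-146b, at -9.64, -9.42 and -8.75 in PYS against -4.25, -4.67 and -4.32 in CT-BM, fell by 4.86 ± 0.32. miR-150 was at -11.46, -11.00 and -11.01 in PYS, against -1.61, -1.82 and -1.80 in CT-BM, and fell by 9.41 ± 0.23. These miRNAs of immune cells kept a detectable level in PYS, unlike miR-142-5p.

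miR-155, which is induced in activated immune cells, was at -13.24, -12.86 and -12.24 in PYS, against -6.04, -6.13 and -6.10 in CT-BM, and fell by 6.69 ± 0.30. The hairpin of miR-342 parted from the rest of the list. miR-342-3p was at -4.24, -4.21 and -3.74 in PYS, against -3.70, -3.85 and -3.83 in CT-BM, with overlapping groups and a log2 change of -0.28 ± 0.25 (adjusted p = 0.307; 1.23 with MammU6 alone). miR-342-5p was the 1 member that rose, at -11.94, -11.54 and -11.75 in PYS and undetected in CT-BM, at least 8.44 log2 units higher.

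Red cell and miR-181 assays were lower as well. Both erythroid assays fell under each scaling. miR-451, which red cell precursors make in large amounts, was at -13.66, -13.26 and -13.74 in PYS, against -5.98, -5.90 and -6.04 in CT-BM (log2 change -7.58 ± 0.28). miR-486 was not detected in PYS and was at least 11.16 lower. The 3 assays of the miR-181 family, known from thymus and B cell development, all fell under each scaling, with a median of -11.57 and 2 bounds. miR-181a was at -4.54, -4.94 and -4.76 in CT-BM and was detected in PYS in replicate 1 alone, at -19.09. Its log2 change was -15.72 ± 0.57, and -16.40 without PYS replicate 1.

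**Figure D3:**
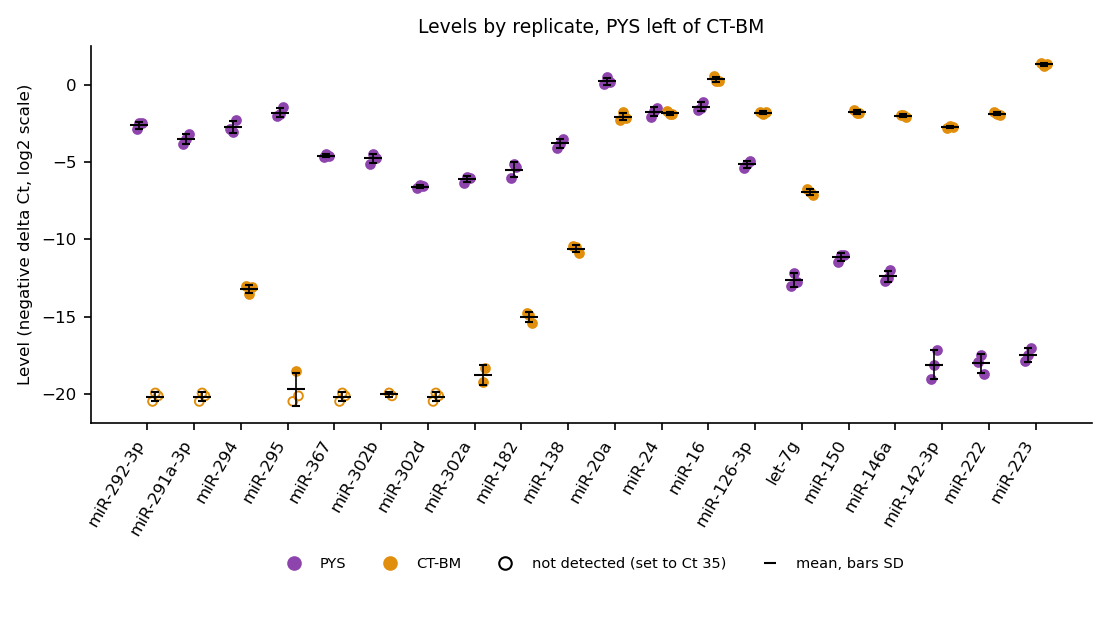
Level of 20 assays in each replicate (negative delta Ct, log2 scale), PYS in purple on the left of each pair and CT-BM in orange on the right, with the mean and SD in black and open circles for undetected replicates set at the Ct limit. The miR-290, miR-302 and miR-183 assays sit high in PYS and the blood miRNAs high in CT-BM, while miR-24 overlaps between the groups.

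The pair miR-221 and miR-222, which promote cell cycling in several tumours, was at or near the Ct limit in PYS. miR-222 was at -17.91, -17.48 and -18.69 in PYS, against -1.76, -1.90 and -1.95 in CT-BM, and its log2 change of -16.16 ± 0.36 was the next largest decrease after that of miR-223 among assays measured in both groups. miR-221 was not detected in PYS and was at -9.37, -9.59 and -10.10 in CT-BM, at least 11.44 ± 0.33 lower. Both lie within chrX:19146294-19146971.

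Among bounds, the largest decrease was that of miR-149, at -4.77, -4.99 and -5.04 in CT-BM and not detected in the 2 PYS replicates that hold it, at least 17.05 ± 0.30 log2 units lower. Both strands of the miR-139 hairpin fell. miR-139-3p was not detected in PYS and was at least 15.47 lower, and miR-139-5p was at -13.11, -12.48 and -12.29 in PYS, against -3.83, -3.49 and -3.72 in CT-BM, a log2 change of -8.95 ± 0.23. The brain and kidney miRNA miR-204 was at least 12.28 lower. miR-34a, a target gene of p53, was at -8.36, -8.93 and -8.88 in CT-BM, was not detected in PYS and was at least 12.41 lower. Its seed GGCAGUG is shared with miR-449a and miR-449c, of which miR-449a fell by 4.90 ± 0.38 and miR-449c fell by 3.86 ± 0.31.

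Of the let-7 family 9 of 11 tested assays were lower and 0 higher, with a median of -3.64 (7 lower with MammU6 alone, 10 with each of the snoRNAs alone). Over all assays 38.7% were lower. let-7i was at -12.46, -11.56 and -12.76 in PYS, against -6.005, -6.22 and -6.29 in CT-BM, and fell by 6.08 ± 0.36. let-7g was at -13.01, -12.16 and -12.77 in PYS, against -6.77, -6.93 and -7.11 in CT-BM, and fell by 5.71 ± 0.24. let-7d fell by 3.97 ± 0.35, and let-7f, undetected in PYS, was at least 13.03 lower. Members of the same seed did not move by one amount.

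The exceptions in let-7 were let-7b and let-7c. let-7b had a log2 change of -0.54 ± 0.71 (adjusted p = 0.482) and let-7c one of -0.44. Both of these turned positive with MammU6 alone, at 0.97 and 1.07. The 3 members of the miR-29 family with the seed AGCACCA, which are known to target collagens and DNA methyltransferases, also fell, miR-29a by 5.67 ± 0.20, miR-29b by 2.78 ± 0.37 and miR-29c by 2.46 ± 0.26. Over the 6 assays of that family 4 fell, but with MammU6 alone 2 were higher and 1 lower.

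The abundant core was closer between the groups. Among 21 assays with a level above -5 in both groups, 12 were not called, 6 were higher and 3 lower in PYS. Assays differ in efficiency, so the order of levels between assays is only a rough guide. The highest level in PYS was that of miR-19b, at 0.51, 1.21 and 0.92, against -0.85, -0.69 and -1.08 in CT-BM (log2 change 1.75 ± 0.26). It is the growth-promoting member of the miR-17-92 cluster, but 2 genes make it in RefSeq, so its level cannot be assigned to 1 of them. miR-20a followed at 0.04, 0.49 and 0.19 in PYS, against -2.26, -1.78 and -2.12 in CT-BM, a change of 2.29 ± 0.27. miR-18a of the same cluster rose by 2.28 ± 0.26.

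The remaining leading assays of PYS differed less. miR-17, at -0.49, -0.07 and 0.14 in PYS against -1.002, -0.93 and -1.08 in CT-BM, was 0.86 ± 0.21 higher and missed the 2-fold minimum. miR-106a, at -0.42, -0.24 and 0.09 in PYS against -0.93, -0.95 and -1.07 in CT-BM, was 0.80 ± 0.20 higher and likewise not called. For miR-24 the groups overlapped, at -2.07, -1.68 and -1.50 in PYS and -1.72, -1.91 and -1.86 in CT-BM (log2 change 0.08 ± 0.21, adjusted p = 0.727). miR-709 also overlapped, with a log2 change of -0.18 ± 0.34. The signs of miR-17, miR-106a, miR-24 and miR-709 depend on the scaling.

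The miR-17-92 group with its paralogs had 11 of 17 tested assays higher and 0 lower (median 1.61). This count depends on the scaling, since 17 were higher by MammU6 alone, 16 by common assays and 9 by quantiles, while snoRNA135 alone gave 5 higher and 1 lower and snoRNA202 alone 7 and 1. On the CT-BM side, the highest levels after miR-223 were those of miR-191 and miR-16. miR-191 was at -2.84, -2.54 and -2.24 in PYS, against 0.66, 0.69 and 0.71 in CT-BM, and fell by 3.23 ± 0.28. miR-16, which restrains the cell cycle, was at -1.65, -1.48 and -1.10 in PYS, against 0.56, 0.24 and 0.27 in CT-BM, a change of -1.77 ± 0.26 that was no longer called with MammU6, common-assay or quantile scaling.

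The miR-183 cluster had 4 of 4 assays higher under every scaling (median 9.46, with 2 bounds), beside 39.8% higher over all assays with the 3 controls. These miRNAs are known from sensory organs and many carcinomas, and their 3 hairpins lie within chr6:30165918-30169737. miR-182 was at -6.01, -5.11 and -5.34 in PYS, against -14.74, -14.92 and -15.42 in CT-BM, a change of 9.54 ± 0.36 (adjusted p = 2.26e-11). miR-183 and miR-96, undetected in CT-BM, were at least 10.69 and 7.73 higher. miR-183* rose by 9.39 ± 0.43, and by 8.59 or 10.18 without CT-BM replicate 1 or 3, which differed by more than 1 log2 unit.

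Neighbouring hairpins on chromosome 2 and on the X chromosome rose as well. miR-296-5p was at -4.45, -3.64 and -4.52 in PYS, against -8.82, -8.88 and -8.63 in CT-BM, a change of 4.57 ± 0.30, and miR-296-3p and its neighbour miR-298, undetected in CT-BM, were at least 10.72 and 12.43 higher. All 7 tested assays of the X-linked miR-532 cluster were higher under every scaling (median 3.00, with 3 bounds, within chrX:7237683-7248497), beside 39.8% over all assays with the 3 controls. In that cluster miR-532-5p was at -4.18, -4.81 and -4.89 in PYS, against -7.46, -7.50 and -7.94 in CT-BM (3.00 ± 0.28), and miR-501-3p, undetected in CT-BM, was at least 12.47 higher.

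Other large increases were spread over the genome. miR-138, enriched in brain, was at -4.06, -3.81 and -3.51 in PYS, against -10.45, -10.47 and -10.87 in CT-BM, a change of 6.80 ± 0.24, and miR-138* rose by 5.86 ± 0.28. miR-375, known from pancreatic islets, rose by 6.36 ± 0.35, with the CT-BM replicates that hold it near the limit at -17.11 and -17.91. miR-193* rose by 6.85, miR-99b by 5.34, miR-324-5p by 5.31, miR-190 by 4.57, miR-365 by 4.42 and miR-184 by 4.29. The neural list had 4 of 6 assays higher and 1 lower (3 higher with each of the snoRNAs alone). miR-9 rose by 3.67 ± 0.54 (2.94 without CT-BM replicate 3), whereas miR-124, which neurons make in large amounts, was not detected in PYS and was at least 10.21 lower.

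Most tested assays of certain imprinted or repeat-rich loci were lower. The Dlk1-Dio3 locus on chromosome 12, a large imprinted cluster, has 63 assays on the cards, of which 19 were tested. Of these 17 were lower, 0 higher and 2 not called (median -5.98, and 15 to 18 lower under the other scalings). However, 9 of the 19 are bounds whose direction the filter largely set. With no filter 33 of 63 were lower and 0 higher, with a median of -1.24, which is the shift of the controls on card B. Detected in CT-BM and in no PYS replicate were miR-673-5p and miR-667, at least 13.30 and 13.96 lower, and miR-136, miR-379 and miR-127, at least 9.23, 8.78 and 7.92 lower. miR-411 was at -18.00, -18.48 and -18.08 in PYS, against -11.58, -11.91 and -11.74 in CT-BM, and fell by 6.44 ± 0.21. miR-654-3p, which lies among these genes but was not on the list, was at least 2.24 higher from 2 PYS replicates near the limit.

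Of 18 assays of the Sfmbt2 locus, an intronic miRNA cluster on chromosome 2, 8 were tested and these 8 were lower (median -9.46, and 6 with MammU6 alone). Of the 8, 5 are bounds, and with no filter 14 of 18 were lower (median -1.24). Here miR-467a, miR-467b and miR-467c, which have similar sequences and can share signal, were undetected in PYS and at least 11.46, 11.45 and 11.35 lower. The abundant miR-466d-3p fell by 2.68 ± 0.40. All 8 tested assays, of 10 on the cards, of the miR-322 and miR-503 cluster on the X chromosome also fell (median -5.19, and 6 with MammU6 alone and 7 with quantiles). Of its members miR-322 shares the seed AGCAGCA with miR-16. miR-503 was at -13.04, -12.24 and -12.72 in PYS, against -6.59, -7.38 and -7.10 in CT-BM, and fell by 5.65 ± 0.29.

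Markers of other cell types that marrow can hold moved with the blood miRNAs. All 6 tested stromal assays were lower in PYS under each scaling, with a median of -8.84, although 4 of these values are bounds. Over all assays 38.7% were lower with the 3 controls. miR-143 and miR-214, of smooth muscle and other mesenchymal cells, were undetected in PYS and at least 11.22 and 12.26 lower, and miR-145 was at -14.09, -13.61 and -13.75 in PYS, against -6.46, -6.15 and -6.65 in CT-BM (log2 change -7.40 ± 0.29). All 3 muscle assays fell under each scaling, with miR-133a at -14.77, -14.54 and -14.05 in PYS, against -3.80, -4.40 and -3.81 in CT-BM (-10.45 ± 0.29). Endothelial miR-126-3p was at -5.39, -5.13 and -4.91 in PYS, against -1.75, -1.91 and -1.76 in CT-BM, and fell by 3.34 ± 0.22. Summed on a linear scale, with 1 the mean of the controls, the tested stromal assays came to 8.7e-05 to 0.000133 in PYS and 0.013 to 0.0195 in CT-BM. The muscle sum was 5.24e-05 to 7.18e-05 in PYS and 0.0476 to 0.0721 in CT-BM, and the endothelial sum 0.0261 to 0.0365 in PYS and 0.28 to 0.311 in CT-BM. In CT-BM each of these 11 assays was detected in every replicate, and the part that such cells have in the comparison was not tested. The blood-lineage sum was 0.0549 to 0.0783 in PYS and 3.19 to 3.58 in CT-BM.

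The labels call PYS epithelial-like, and the epithelial markers gave no single direction. Of the miR-200 family, which keeps epithelial cells from turning mesenchymal, 3 of 8 assays were higher and 2 lower, and with either snoRNA alone 2 were higher and 3 lower. miR-200a rose by 1.38 ± 0.28 and miR-200c fell by 4.06 ± 0.25, while miR-141, of the same hairpin pair as miR-200c, was undetected in PYS and at least 7.45 lower. Its other strand miR-141* went the opposite way and rose by 2.19 ± 0.38. The skin and gut list had 5 of 7 lower and 0 higher (2 lower and 1 higher with MammU6 alone). Its keratinocyte member miR-203 was undetected in PYS and at least 11.59 lower, and miR-31 was at -12.52, -12.48 and -12.23 in PYS, against -7.74, -7.68 and -7.99 in CT-BM (-4.61 ± 0.30).

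Families with members on both sides included miR-130 and miR-301, of which 4 of 5 tested assays were higher and 1 lower (2 higher with snoRNA135 alone). miR-301a was at -4.35, -3.99 and -4.42 in PYS, against -6.96, -6.92 and -7.40 in CT-BM, and rose by 2.84 ± 0.33. miR-130a, with the same seed, was at -15.07, -14.24 and -14.70 in PYS, against -9.68, -9.72 and -10.09 in CT-BM, and fell by 4.84 ± 0.37. miR-148a and miR-148b, again of one seed, also parted, with log2 changes of -2.45 ± 0.27 and 2.15 ± 0.33. That list had 1 of 3 assays higher and 1 lower, and 2 higher and 0 lower with MammU6 alone.

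Of the assays for miR-99, miR-100 and miR-125, 3 of 7 were higher and 2 lower (2 higher and 3 lower with snoRNA135 alone). miR-125b-5p, abundant in blood stem cells, was at -13.35, -12.94 and -13.34 in PYS, against -9.13, -8.55 and -9.33 in CT-BM, and fell by 4.21 ± 0.40. miR-125a-3p was undetected in CT-BM and at least 6.48 higher. From the Hox gene clusters, where miRNA genes lie among body-pattern genes, 1 of 3 tested assays was higher and 2 lower (0 higher with either snoRNA alone), with miR-10a undetected in PYS and at least 11.42 lower and miR-196b, whose log2 change was -3.75 ± 0.46.

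The remaining families turned with the scaling. The miR-15 and miR-16 family had 3 of 8 assays higher and 1 lower, but 5 higher and 0 lower with MammU6 alone and 1 higher and 5 lower with snoRNA135 alone. The miR-30 family had 3 of 8 higher and 1 lower, but 6 and 0 with MammU6 alone and 1 and 4 with snoRNA135 alone, with miR-30b*, undetected in CT-BM, at least 7.80 higher. For miR-23, miR-24 with miR-27, 2 of 8 assays were higher, against 8 scaled by MammU6 alone, 5 by common assays or by quantiles, 1 by snoRNA202 alone and 0 by snoRNA135 alone. The miR-34 and miR-449 list had 1 of 6 higher and 3 lower (3 and 3 with MammU6 alone), and that of liver and islet 2 of 3 higher and 1 lower (2 and 0 with MammU6 alone).

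Of the 21 assays of an X-linked cluster known from the male germ line 15 were not tested. The other 6 were detected in PYS, near the limit, and not in CT-BM, so that the filter fixed their direction, and their 6 calls are no support for a change of the cluster. With no filter 6 were higher and 3 lower (median -0.94). miR-741 was at -16.09 and -17.14 in the 2 PYS replicates that hold it and at least 3.58 higher. With a Ct limit of 32, 4 assays were tested and 0 called, with a median log2 change of 0.43 in place of 3.43.

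**Figure D4:**
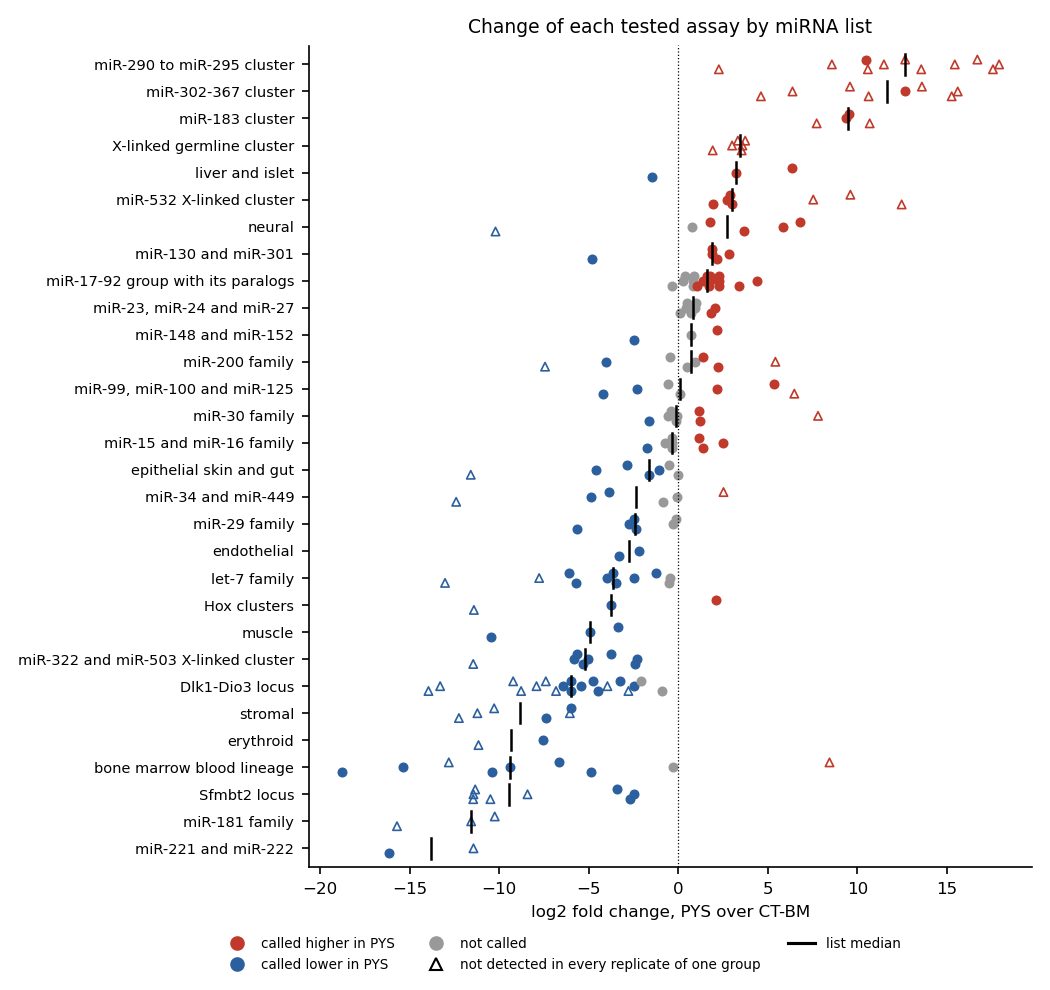
Log2 change of each tested assay, PYS over CT-BM, by list of miRNAs, with the list median as a black bar. Triangles mark assays that were not detected in every replicate of one group, most of which are lower bounds on the size of the change. The miR-290 and miR-302 lists lie at the top with medians of 12.67 and 11.65, and the miR-221 and miR-222 pair at the bottom with -13.8.

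Groups of neighbouring genes were read next. In GRCm38.p6, 25 groups of miRNA genes within 10 kb of each other held 121 of the tested assays. Called assays were higher only in 14 groups and lower only in 7. They went both ways in 3, and 1 group had none. A group counts here from a single call, as 4 of the 14 and 1 of the 7 do. Every tested assay was higher in 7 groups and lower in 5. The groups with both directions were the Mir141 pair on chromosome 6, the Mir379 stretch of the Dlk1-Dio3 locus through miR-654-3p, and the Mir99b group on chromosome 17. In the Mir99b group miR-99b rose to -4.40, -4.26 and -4.21 in PYS, against -9.49, -9.58 and -9.82 in CT-BM, while let-7e next to it fell by 3.48.

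The strands of a hairpin were also compared with each other. Where 1 gene makes both strands a change of the whole hairpin cancels. In RefSeq, however, miR-7a, miR-135a, miR-16, miR-29b and miR-138 are each made by 2 genes and miR-9 by 3, and some hairpins have no entry. For those with several genes a change in which gene is used cannot be told apart from a change in strands. The balance was the level of the other strand (starred, or 3p) minus that of the named strand (unstarred, or 5p), tested with limma over the 46 hairpins with both strands detected in all replicates of both groups. Of these, 28 (60.9%) were called, 19 shifted towards the other strand in PYS and 9 towards the named strand. On one card, where the controls cancel too, 7 of 10 (70%) were called, 4 and 3 in these directions.

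The hairpin of miR-7a, a miRNA of neurons and islets, had the largest shift towards the named strand. Its balance was 3.00, 2.79 and 3.03 in PYS, against 7.69, 7.56 and 7.55 in CT-BM, a change of -4.66 ± 0.29 (adjusted p = 2.25e-08). miR-7a rose by 3.20 ± 0.23 while miR-7a* fell by 1.46 ± 0.24, although with MammU6 alone both were positive. The hairpin of miR-135a had the largest shift the other way. Its balance was 5.77, 4.87 and 4.66 in PYS, against -0.16, 0.42 and -0.49 in CT-BM, a change of 5.18 ± 0.72 (adjusted p = 3.40e-05). There miR-135a* rose by 3.70 ± 0.42 and miR-135a fell by 1.48 ± 0.48, a fall that turned to 0.03 with MammU6 alone.

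Other shifts towards the other strand were those of miR-106b (3.60 ± 0.48), miR-29a (3.30 ± 0.38), miR-542 (3.02 ± 0.55) and miR-191 (2.97 ± 0.42). The strand miR-106b* itself rose by 4.40 ± 0.58, and by 3.68 without CT-BM replicate 3. Shifts towards the named strand were found for miR-21 (-3.40 ± 0.50), miR-99b (-3.20 ± 0.45), miR-339 (-2.72 ± 0.61) and miR-877 (-2.37 ± 0.30). Both strands of miR-542, miR-339 and miR-877 lie on one card. Among the 46 pairs, the strands were called in opposite directions in 5, those of miR-7a, miR-135a, miR-339, miR-30e and miR-16. This count depends on the scaling. With MammU6 alone miR-7a*, miR-135a and miR-339-3p turned positive, at 0.56, 0.028 and 0.48, and miR-16 was no longer called. Among all 69 tested starred mouse assays 34 were higher and 20 lower, with a median log2 change of 0.96 beside 0.08 over all assays. Most starred strands of these pairs lay on the other card from their named strand. The 120 tested assays of card B, starred or not, had 54 higher and 38 lower with a median of 0.75, against -0.21 on card A. A trait of starred strands cannot be told apart here from a difference between cards. The fall of miR-339-3p by 1.03 ± 0.34 just passed the 2-fold minimum and was not called without PYS replicate 1 or 2 or CT-BM replicate 1.

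**Figure D5:**
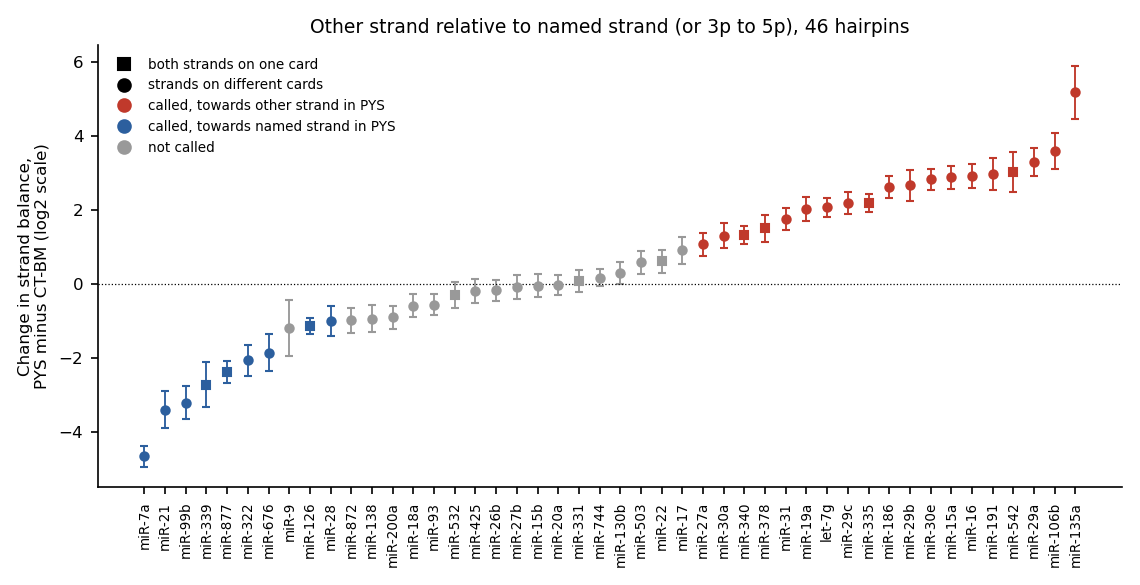
Change in strand balance, PYS minus CT-BM on a log2 scale with its SE, for the 46 hairpins, in rising order. Squares have both strands on one card. The ends are miR-7a at -4.66 and miR-135a at 5.18.

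Assays named for rat miRNAs were kept apart from those named for mouse. Of 25 that were tested 10 were higher and 10 lower. For 11 names a mouse assay was tested too, and such pairs need not read the same molecules. rno-miR-532-5p was undetected in CT-BM and at least 14.41 higher in PYS, whereas the mouse-named miR-532-5p was detected in CT-BM and 3.00 higher. The mouse-named miR-351 was undetected in PYS and at least 11.46 lower, but rno-miR-351 had a mean Ct of 27.7 in PYS and fell by 2.56. The mouse-named miR-345-3p was undetected in CT-BM, where rno-miR-345-3p had a mean Ct of 27.9 and was not called. For rno-miR-28*, undetected in CT-BM, the mouse-named assay had a mean Ct of 22.6 there. An "at least" value thus holds for its assay alone. rno-miR-1 fell by 7.58 and the mouse-named miR-1 by 4.91. The mouse and rat assays of miR-489 were both undetected in PYS, at least 9.38 and 9.98 lower.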

How the data were processed

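Total RNA of PYS and CT-BM was measured by the authors on TaqMan rodent cards A and B in 40 cycles, per the labels. Per the file headers, the authors deposited a Ct for every well and a mean over the wells of an assay (Ct Avg), both other values in cycles and not normalized. The software and its detection setting are not given in the sources used here. For 3543 of 3543 values Ct Avg lay within 0.001 cycles of the mean recomputed from its wells. The table was read with Python 3.11.15 and pandas 2.3.3, and repeat wells were averaged (median SD 0.116 cycles over 481 sets). Undetermined wells and those with a Ct over 35 (4 in PYS, 3 in CT-BM) were set to 35. For 1086 combinations of assay and group 3 replicates were present and for 82 only 2, and the fit leaves out the absent ones.

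Levels (negative delta Ct) entered a linear model with 4 group means over all 12 replicates of the series (lmFit, then eBayes, of limma 3.58.1 under R 4.3.3), with Benjamini-Hochberg adjustment over all tested assays. Folds are 2 to the power of the log2 change. Lists are described by counts and medians without a test. Detected shares were compared with SciPy 1.17.1, and figures drawn with matplotlib 3.10.9. Precision is limited by 3 replicates a group. The comparison, the 30 lists, the tests and the rule for named assays were chosen with earlier results of these data known. The rule took the 15 largest increases and 15 largest decreases measured in both groups, the 10 largest bounds each way, up to 5 members of each list, the 8 highest levels per group and the 5 largest strand shifts each way. Named assays outside it were chosen after their values were seen. Not every assay that the rule took is described above. Among the largest changes left out were miR-218 and miR-592 (log2 changes -9.15 and -9.05, measured in both groups). Also left out were the bounds of miR-715 (at least 12.49 higher) and rno-miR-347 (at least 13.47 lower). The alternatives tried were each control alone, 2 other scalings, Ct limits of 32 and 40, other filters and fits, each card alone, leaving out each replicate and, added after seeing the data, the controls without MammU6. The pipeline was tested on simulated data.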

Additional observations from a re-analysis of the deposited data

Results flagged for a closer look

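The small RNA Y1, a control on the cards that took no part in the scaling, differed between the groups. Its level on card A was -7.54 ± 0.163 in PYS and -11.8 ± 0.201 in CT-BM (SD, n = 3 each), a difference of 4.26 on the log2 scale. On card B it was -7.66 ± 0.0607 in PYS and was not detected in any CT-BM replicate, at least 13.2 higher in PYS. It is listed because it is a signal outside the miRNA assays, and the same RNA was thus read in CT-BM on one card and not on the other. The other controls left out of the scaling, U87 and snoRNA429, differed by 0.46 (card A), 0.05 (card B) and -0.20.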

How the results depend on the processing

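The number of calls stayed within 1.5 times of 284 except where fewer assays were tested, with 175 calls (84 higher, 91 lower) among assays detected in all 6 replicates and 92 (54 higher, 38 lower) on card B alone; card A alone gave 91 higher. With no filter 234 assays were lower, since assays detected in neither group sit at the Ct limit and take on the shift of the controls. Leaving out 1 replicate at a time gave 277 to 288 calls, 140 to 149 of them higher, and 26 to 31 strand calls and 19 lists with calls in 1 direction only, as with all replicates. Strand pairs on one card gave 7 calls. With the replicate number as a block 283 assays were called, 139 of them lower, and 27 strand pairs and the same number of lists. The deviations of same-numbered replicates from their group means correlated at -0.0543, -0.0231 and -0.106 over 231 assays, and no replicate correlated best with its own number, so the numbers were not taken to pair samples. The difference in detected share was 1.34 percentage points with a Ct limit of 32 (exact permutation p = 0.3). Under the 18 settings 116 named assays kept their direction and 10 did not. With MammU6 alone the log2 change turned to 0.56 for miR-7a*, 1.84 for miR-709, 0.028 for miR-135a, 0.48 for miR-339-3p, 1.23 for miR-342-3p, 0.97 for let-7b and 1.07 for let-7c. With the mean of common assays it turned to 0.62 for miR-342-3p, 0.36 for let-7b and 0.46 for let-7c, and with quantiles to 0.24 for miR-709 and 0.47 for let-7c. With snoRNA135 alone it turned to -0.060 for miR-17, -0.12 for miR-106a and -0.84 for miR-24, which was -0.51 with snoRNA202 alone, -0.67 without MammU6 (an alternative chosen after seeing the data) and -0.044 without PYS replicate 3. The cause of these turns was not tested; a single control moves every assay of a card by one amount. Without MammU6, 113 assays were higher and 170 lower. The Ct limit and the number of replicates limit the precision of the lowest levels.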
